A study of Mus musculus with 4 samples.

Results

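The genes described here are 8 mouse genes of the podocyte and the glomerular filter: Nphs1, Kirrel, Cd2ap, Plce1, Ptpro, Podxl, Synpo and Wt1. They were listed by name, as genes of the slit diaphragm, of the podocyte skeleton and of podocyte transcription, with earlier results of these data known, and the rule itself uses no measured value. Of the 41174 probes on the array that are not controls, 18 belong to these genes after names were updated, and 13 of those were bright enough to test. Each of the 8 genes had at least 1 such probe, among 17628 genes tested. The name printed in the array files found 7 of the genes and 15 of the probes. Kirrel was reached only through a RefSeq name table: 2 of its probes are filed as Kirrel1, and the 1 bright enough to test is filed under the clone name 6720469N11Rik.

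Kidney RNA of Th3 mice was set against kidney RNA of controls. Th3 mice carry a deletion of the adult beta-globin genes, beta-major and beta-minor, and serve as a model of the inherited anaemia beta-thalassemia. The design lists 4 mutants and 4 controls, hybridised as pairs on 4 two-colour arrays, with the Th3 sample in Cy5 on arrays 1 and 2 and in Cy3 on arrays 3 and 4. The labels give tissue and strain only. They name no age, no sex, no background strain of the controls and no zygosity of the deletion, and nothing in them shows that the samples are from separate animals, so p-values measure a spread between samples that may be technical.

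Podocytes are the epithelial cells that wrap the capillaries of the glomerulus with interlocking foot processes. The slit between neighbouring processes is bridged by a diaphragm built from nephrin and its relatives, which adaptors tie to the actin skeleton inside the process. Loss of one of several of these proteins makes the filter leak protein into the urine in mice and people. In kidney RNA most transcripts come from tubules, and fewer podocytes and less RNA per podocyte cannot be told apart.

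None of the 8 genes passed the test between Th3 and control kidney (0 of 8 at a limma adjusted p under 0.05, against 21.5% of all genes tested; 5 of 8 at an unadjusted p under 0.05, against 36.4%). The level in Th3 kidney lay between 83.7% of control for Ptpro and 119% for Wt1. Wt1, Cd2ap and Kirrel were above 0 on all 4 arrays in Th3 over control. The other 5 had negative mean ratios, each with a value above 0 on array 2 (0.00 to 0.14). Among related genes, Tcf21, a transcription factor of podocytes and stromal cells, fell on all 4 arrays, to 0.545-fold of control on average. Of all genes, 17.4% were lower on all 4 arrays. In the list that holds Tcf21, 7 podocyte transcription factors were tested. Of these 2 rose and 1, Tcf21, fell, and the median log2 ratio of the list was 0.16.

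The probe sequences follow because several genes have a pair of probes whose mean ratios differ in sign. Whether the sequences bear on those signs was not tested. All are given 5′ to 3′ as in the array files, in lower case, with positions on mouse build mm8 from the file headers. Of the probes shown, the 3 whose position is longer or shorter than their 60 bases are printed whole, and the others by their first 30 bases. The probe for Nphs1 covers 220 bases of chromosome 7 and the dimmer probe for Ptpro covers 856 bases of chromosome 6, both more than a probe's length. Sequences of Synpo are not given.
Nphs1, chr7:30190574-30190793, plus strand: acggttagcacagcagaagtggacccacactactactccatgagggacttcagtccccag
Kirrel, tested probe, chr3:87164760-87164819, minus strand: ccagtcattcctcggattgttatctccatc
Kirrel, a probe filed as Kirrel1, chr3:87168739-87168749, minus strand: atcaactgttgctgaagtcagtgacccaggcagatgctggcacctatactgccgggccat
Cd2ap, brightest probe, chr17:42256859-42256918, minus strand: cccggtcttaacagaggactccttacactc
Cd2ap, other probe, chr17:42259700-42259759, minus strand: aagacagcagaaatggtggtgtgatgaaga
Plce1, brightest probe, chr19:38847791-38847850, plus strand: tcacacctgatggatgtgaggttcgtggag
Plce1, other tested probe, chr19:38788853-38788912, plus strand: tgcagtgtgtttcaataataactatttatg
Ptpro, brightest probe, chr6:137427195-137427254, plus strand: agaggagctgggaattcagaagtcacgaca
Ptpro, other probe, chr6:137406884-137407739, plus strand: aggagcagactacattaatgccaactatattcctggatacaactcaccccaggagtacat
Podxl, brightest probe, chr6:31450568-31450627, minus strand: tgtaaatacaagagccacatgtttatttac
Podxl, other probe, chr6:31453106-31453165, minus strand: aactgcactgcagagctccagaccacccaa
Wt1, chr2:104974110-104974169, plus strand: cactggtaagactgttcttaagtaacttaa
Each of the 18 sequences belongs to 1 probe alone on the array. Their G and C content ran from 30% to 68.3% with a median of 45%, and the median over all probes was 40%.

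Per channel, 62.4% to 72.7% of spots were well above background and 0 were saturated. Precision is limited by having only 4 arrays. As a check of the labels, beta-globin RNA (Hbb-bt, filed as Hbb-b1) stood at 8.48% of control in Th3 kidney, a log2 ratio of -3.56 ± 0.48 (SD, n = 4; adjusted p = 2.7e-06), and fell on 4 of 4 arrays. Genes that define the labelled tissue passed the filter on dim probes, among them Nphs1 and all 10 tubule genes examined below. All arrays lie on 1 slide and were scanned on 1 date. Because the fit has a dye term, its p-values rest on how far arrays of 1 dye orientation differ from each other, not on how far the orientations differ.

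Levels below are log2 signals after normalization within and between arrays, given for arrays 1, 2, 3 and 4 in turn, and each ratio is the log2 of Th3 over control on the same array. A level belongs to its probe and is not set against that of another probe. Intervals are 95% confidence intervals of the limma fit, and a ± is the SD over the 4 arrays.

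Nphs1 encodes nephrin, the adhesion protein that spans the slit. Its 1 probe read 9.16, 9.33, 9.32 and 9.08 in Th3 kidneys, against 9.52, 9.31, 9.39 and 9.36 in control kidneys. The Th3 samples on arrays 1 and 4 were the lowest of the 8, and the other 2 overlapped the controls. The ratio was -0.36, 0.02, -0.07 and -0.28 on the 4 arrays, a mean of -0.17 ± 0.18 with an interval of -0.36 to 0.02 (adjusted p = 0.172). That mean was 88.8% of control, and it moved to -0.076 without array 1 and to -0.27 without array 2 (adjusted p = 0.705 and 0.0624).

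Kirrel encodes Neph1, a relative of nephrin that binds it across the slit. The tested probe read 10.02, 10.13, 10.08 and 10.09 in Th3 kidneys, against 9.88, 9.86, 9.96 and 10.05 in control kidneys. The 2 groups met at the top, where the control sample on array 4 exceeded the Th3 sample on array 1. The ratio was positive on every array, at 0.14, 0.27, 0.11 and 0.05, with a mean of 0.14 ± 0.09 and an interval of 0.01 to 0.27 (adjusted p = 0.114). This probe reached the gene through a synonym, and the 2 probes filed as Kirrel1 were near background, with mean ratios of -0.01 and 0.02.

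Cd2ap encodes an adaptor that links nephrin to actin and is made in many other cells too. Its brightest probe read 13.41, 13.34, 13.32 and 13.30 in Th3 kidneys, against 13.32, 13.03, 13.05 and 13.17 in control kidneys. Of the controls only the sample on array 1 reached into the range of the Th3 samples. The ratio was 0.08, 0.31, 0.27 and 0.13, a mean of 0.20 ± 0.11 with an interval of 0.05 to 0.35 (adjusted p = 0.0672). The other probe, also well above background, gave -0.06, 0.11, -0.61 and 0.06, a mean of -0.12 ± 0.33, and the mean of both probes was 0.04. The value for Cd2ap therefore rests on which probe is read.

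Plce1 encodes phospholipase C epsilon, a signalling enzyme whose loss causes a childhood nephrotic syndrome in people. The brightest of its 4 probes read 7.08, 7.09, 6.93 and 7.09 in Th3 kidneys, against 7.11, 7.09, 7.23 and 7.27 in control kidneys. On arrays 1 and 2 the pair of samples read nearly alike, and on arrays 3 and 4 the Th3 sample was lower. The ratio was -0.04, 0.00, -0.29 and -0.19, a mean of -0.13 ± 0.14 (adjusted p = 0.135). A second kept probe gave 0.07 ± 0.12, the mean of both kept probes was -0.03, and the other 2 probes were not above background on all arrays of a group.

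Ptpro encodes GLEPP1, a receptor tyrosine phosphatase of the foot process surface. Its brightest probe read 10.59, 10.62, 10.56 and 10.62 in Th3 kidneys, against 11.01, 10.49, 10.98 and 10.95 in control kidneys. The Th3 samples lay close together, and 3 of the 4 controls lay above them while the control on array 2 lay below. The ratio was -0.42, 0.14, -0.42 and -0.33, a mean of -0.26 ± 0.27 with an interval of -0.48 to -0.03 (adjusted p = 0.0988). Without array 2 the mean was -0.40 and passed the test (adjusted p = 0.00555), and without array 1 it was -0.12 (adjusted p = 0.489). The other probe, dimmer and above background in the control channel on 2 of 4 arrays, gave -0.05 ± 0.09, and the mean of both probes was -0.15.

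Podxl encodes podocalyxin, the charged sialomucin of the podocyte surface, which vascular endothelium also makes. The brightest probe read 9.61, 9.66, 9.79 and 9.30 in Th3 kidneys, against 9.91, 9.63, 9.55 and 9.81 in control kidneys. The ranges of the groups overlapped, with the lowest of the 8 samples a Th3 sample on array 4. The ratio was -0.29, 0.03, 0.24 and -0.51, a mean of -0.13 ± 0.33 with an interval of -0.43 to 0.17 (adjusted p = 0.497). Without array 4 its sign turned, to 0.06 (adjusted p = 0.667), while it was -0.05 without array 1, -0.21 without array 2 and -0.32 without array 3. The other probe gave 0.09 ± 0.21, and the mean of both probes was -0.02. No direction can be read for Podxl.

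Synpo encodes synaptopodin, an actin-binding protein of foot processes and of neurons. Its brightest probe read 10.33, 10.26, 10.06 and 10.53 in Th3 kidneys, against 10.69, 10.22, 10.62 and 10.54 in control kidneys. Arrays 1 and 3 showed the Th3 sample lower, and on arrays 2 and 4 the pair read nearly alike. The ratio was -0.36, 0.05, -0.56 and -0.01, a mean of -0.22 ± 0.29 with an interval of -0.48 to 0.04 (adjusted p = 0.193). Without array 2 the mean was -0.32 and passed narrowly (adjusted p = 0.0458), whereas it was -0.12 without array 1 and -0.082 without array 3 (0.558 and 0.593), and -0.36 without array 4 (0.0599). The second kept probe gave -0.13, 0.02, 0.11 and -0.50, a mean of -0.12 ± 0.27, so the arrays that were low differed between the probes, and the third was not above background.

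Wt1 encodes the zinc finger factor that maintains podocyte identity. It read 9.58, 9.72, 9.68 and 9.61 in Th3 kidneys, against 9.56, 9.27, 9.41 and 9.36 in control kidneys. Every Th3 sample was above every control, though the lowest Th3 sample and the highest control, both on array 1, nearly met. Wt1 was the only one of the 8 genes whose groups did not overlap, and 21.0% of all genes showed the same. The ratio was 0.02, 0.46, 0.27 and 0.25, a mean of 0.25 ± 0.18 with an interval of 0.06 to 0.44 (adjusted p = 0.0680). Without array 1 the mean was 0.36 and passed the test (adjusted p = 0.0114). Without array 2 it was 0.14 (adjusted p = 0.356).

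**Figure D1:**
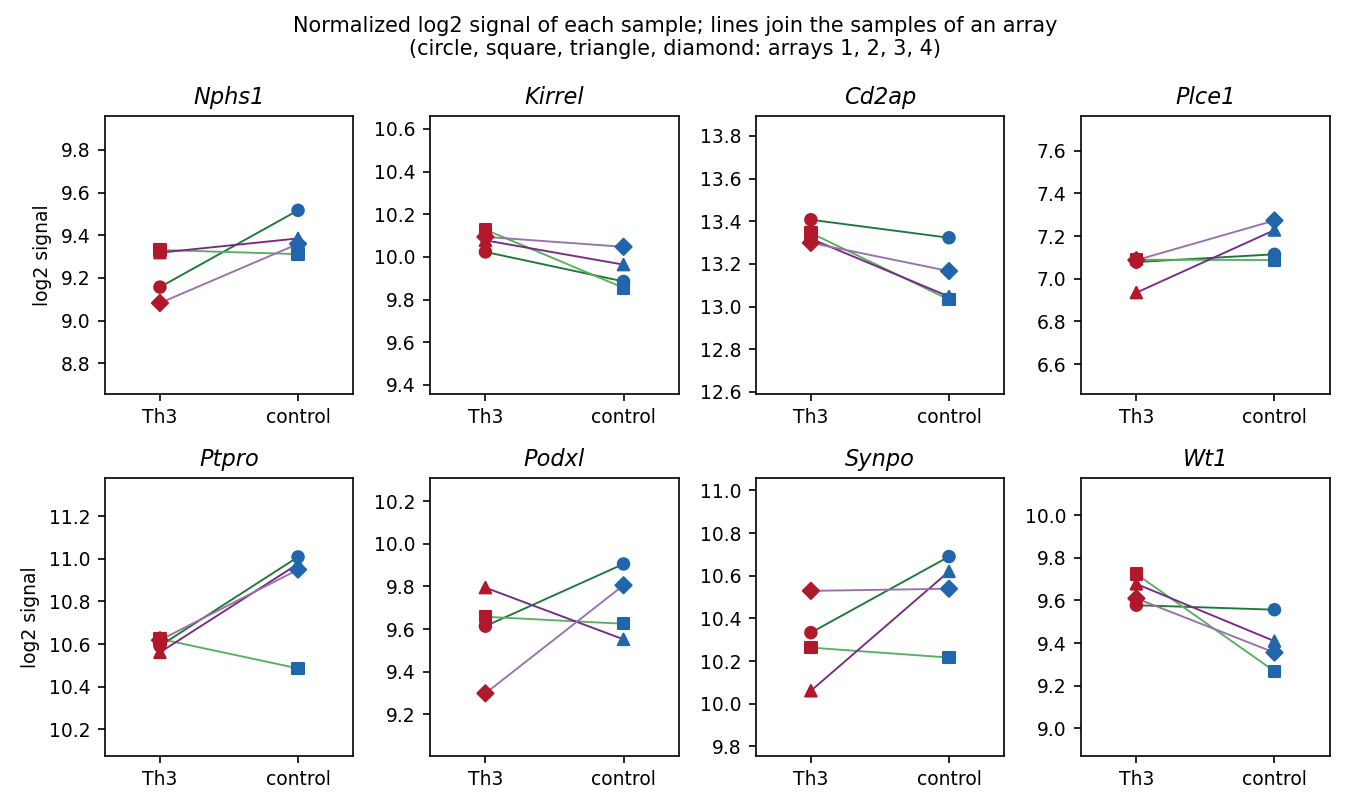
Normalized log2 signal (vertical axis) of the brightest tested probe of each gene in the Th3 sample (left, red) and the control sample (right, blue) of each array, with a line joining the 2 samples of an array. All vertical axes span the same range of log2 units; for Wt1 the 4 Th3 samples read 9.58 to 9.72 and the 4 controls 9.27 to 9.56, and for Ptpro the control on array 2, at 10.49, lies below the other controls.

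The array carries the Wt1 probe on 10 spots, which gives a measure of the error within an array. The file flags 1 of the 10 spots as an outlier on every array, and the other 9 were used. Their ratios ran from -0.01 to 0.07 on array 1, from 0.41 to 0.49 on array 2, from 0.19 to 0.35 on array 3 and from 0.19 to 0.29 on array 4. The spots of array 1 and those of array 2 did not overlap with those of any other array. Pooled over arrays, the SD between spots was 0.037, against 0.178 between arrays. For 181 tested probes with as many spots, the medians of these SDs were 0.044 and 0.177, and the spread between arrays was larger for 167 of them.

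**Figure D2:**
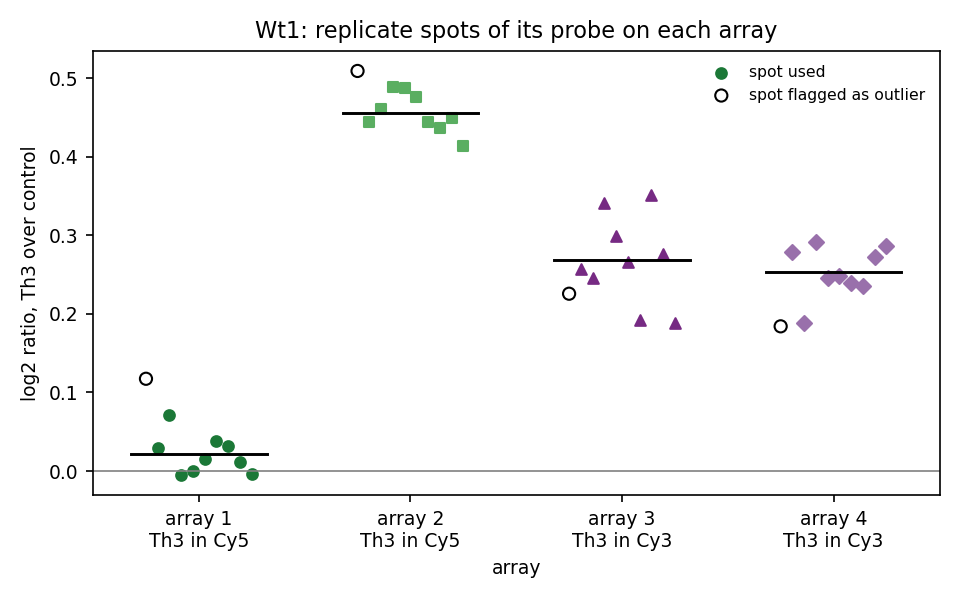
Log2 ratio of Th3 over control (vertical axis) at each spot of the Wt1 probe on the 4 arrays, with the dye of the Th3 sample below each array. Filled symbols are the 9 spots used and open circles the spot flagged as an outlier; lines are array means of 0.02, 0.46, 0.27 and 0.25, and the spots of an array lie closer to each other than the arrays do.

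Wt1 is made by the mesothelium that covers the kidney as well as by podocytes. Among 6 genes listed for mesothelium, which other kidney cells may make too, 4 were tested and 1 was called (25%, against 21.5% of all genes). Msln (mesothelin) rose, with ratios of 1.17, 0.51, 0.15 and 0.74 and a mean of 0.64 ± 0.43 (adjusted p = 0.0192; without array 4, 0.0659). Lrrn4 and Muc16 were near background, and Krt19, Upk3b and Upk1b did not pass, with means of 0.08 ± 0.61, 0.08 ± 0.38 and 0.07 ± 0.53. Krt19 stood at 0.85, 0.26, -0.23 and -0.56 on arrays 1 to 4, and Upk3b at 0.62, 0.04, -0.21 and -0.14. Upk1b stood at 0.80, 0.11, -0.18 and -0.44. The 4 tested genes each had their highest ratio on array 1, where that of Wt1 was lowest, at 0.02. The summed signal of the 4 ran from 1121 to 2365 in Th3 kidneys and from 896 to 1612 in control kidneys, overlapping ranges on the linear scale. The part of mesothelial cells in the Wt1 ratio was not tested, nor was which cells gave the ratios of the 4 genes.

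The 5 genes with an unadjusted limma p under 0.05 were Cd2ap, Wt1, Ptpro, Kirrel and Plce1. The ratio had 1 sign on all 4 arrays for 3 genes, against 37.1% of all genes. Those 3 were higher on every array, against a background of 19.7%, and 0 were lower on every array, against 17.4%. Of all genes, 10.9% were called higher and 10.6% lower, against 0 of the 8 in each direction. The median log2 ratio of the 8 was -0.13, and that of all genes was 0.0013. The median of the 8 was -0.02 when all kept probes of a gene were averaged, -0.03 without array 4 and -0.06 without array 1. It was -0.17 both without array 2 and on Agilent processed signals, the alternatives that moved it farthest from 0. These counts over so few genes describe the genes and test nothing.

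The arrays did not treat the genes alike. On array 2 all 8 ratios were above 0, while on arrays 1, 3 and 4 the genes above 0 numbered 3, 4 and 3. The medians of the 8 were -0.16, 0.09, 0.02 and -0.10 on arrays 1 to 4, and those of all genes were 0.02, 0.02, -0.01 and -0.01. The SD over arrays had a median of 0.178 for the 8 genes and 0.139 for all genes. The dye term passed the test for none of the 8 (0 of 8), and for 175 of all 17628 genes tested. With so few of all genes passing, 0 of 8 shows nothing particular to these genes. In Plce1 and Ptpro the mean ratio differed most between the dye orientations: Plce1 stood at -0.02 on arrays 1 and 2 and -0.24 on arrays 3 and 4, and Ptpro at -0.14 and -0.37.

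**Figure D3:**
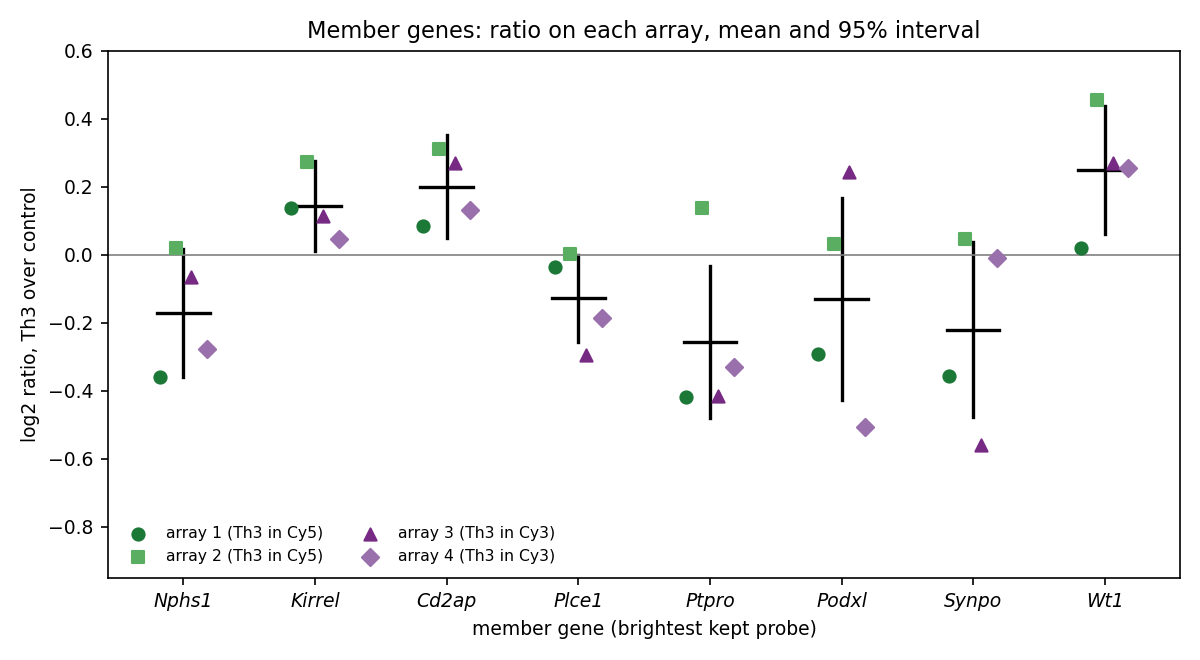
Log2 ratio of Th3 over control (vertical axis) for each gene on each array, with symbols for the arrays, a horizontal bar for the mean and a vertical bar for its 95% interval. Wt1, Cd2ap and Kirrel lie above 0 on all 4 arrays, and the squares of array 2 lie at or above 0 for all 8 genes.

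The genes with 2 kept probes were Cd2ap, Plce1, Podxl, Ptpro and Synpo. The mean ratios of those probes differed in sign for Cd2ap, Plce1 and Podxl, and had the same sign for Ptpro and Synpo. The 5 probes not kept had mean ratios between -0.02 and 0.02.

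**Figure D4:**
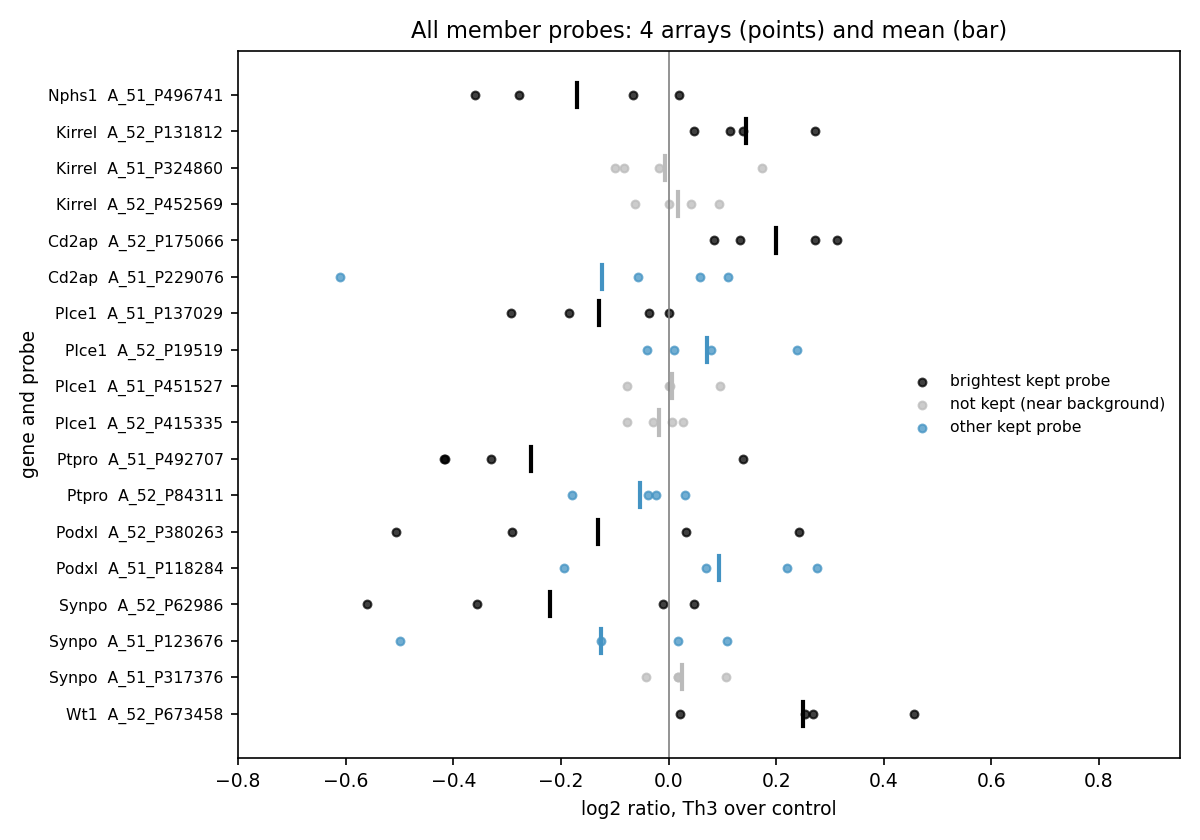
Log2 ratio of Th3 over control (horizontal axis) for all 18 probes, one per row, with 4 points for the arrays and a bar for the mean. Black marks the brightest kept probe of a gene, blue another kept probe and grey a probe near background; kept probes of Cd2ap, Plce1 and Podxl lie on both sides of 0.

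How far the genes moved together was described with 8 channel values per gene, 4 from Th3 and 4 from control samples, after the mean of each dye had been taken out. The values share arrays in pairs, so the correlations are a description. Over the 28 pairs of genes Pearson's r had a median of -0.05 and ran from -0.71 (Wt1 and Plce1) to 0.86 (Wt1 and Cd2ap). Synpo and Ptpro stood at 0.84, and Nphs1 and Podxl at 0.80. With Nphs1 as the reference, Podxl ranked 539 and Ptpro 1592 among 17604 genes (r of 0.80 and 0.68), while Plce1, Synpo, Wt1, Cd2ap and Kirrel ranked from 5415 to 14197. The profiles closest to Nphs1 were those of Kat5 (a histone acetyltransferase, r = 0.991), Poll (a DNA polymerase, 0.983), Dnali1 (a dynein light chain, 0.982), Eif2b1 (a translation initiation factor subunit, 0.981) and Tpra1 (0.975). None of these 5 is in any of the lists below or passed the test between the groups. Of the 17 tested genes in the list of other slit diaphragm and skeleton genes, 2 ranked among the closest 5% of all genes. These were Myo1e (a podocyte myosin) at 76 and Rhpn1 (rhophilin) at 247, with r of 0.91 and 0.85. Both ranked ahead of all 7 other members and were picked out after their values were seen. Itga8, from the list of mesangial genes below and picked out in the same way, ranked 467, also ahead of all 7. The median r with Nphs1 was 0.07 for the 17 genes, 0.28 for the 7 members and 0.50 for the 10 tubule genes below.

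The other podocyte genes were examined in 3 lists chosen with knowledge of earlier results of these data. In kidney RNA most transcripts come from tubules, and which cells gave the ratios of these genes was not tested. Counts in these and the lists after them stand against 21.5% of all genes called, 10.9% higher and 10.6% lower, and a median of 0.0013 over all genes. Of 21 further genes of the slit diaphragm and skeleton 17 were tested; 2 rose, 1 fell and 14 did not pass (17.6% called), with a median of -0.01. The 2 that rose were Nck2, a nephrin adaptor, at 0.25 ± 0.09 (adjusted p = 0.0252), and Ezr (ezrin), which ties podocalyxin to actin, at 0.23 ± 0.07 (adjusted p = 0.0326). Nck1, the sister adaptor of Nck2, fell by 0.25 on the log2 scale (SD 0.14, adjusted p = 0.0439). These 3 calls were lost without single arrays: Nck1 without array 2, 3 or 4 (adjusted p up to 0.241), Nck2 without array 1, 2 or 3 (up to 0.0823) and Ezr without any 1 array (0.0506 to 0.179). The second probe of Nck2 gave -0.02, and the other kept probes of Nck1 gave -0.26 and 0.07. On the mean of all kept probes, Nck1 (-0.15, adjusted p = 0.122) and Nck2 (0.12, adjusted p = 0.127) did not pass. Kirrel2, Kirrel3, Trpc6 and Anln were near background.

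Of 8 further podocyte transcription factors 7 were tested; 2 rose, 1 fell and 4 did not pass (42.9% called, against 21.5% of all genes), with a median of 0.16. Tcf21 had ratios of -0.85, -0.99, -0.80 and -0.86, a mean of -0.88 ± 0.08 (adjusted p = 6.5e-04), and remained called under all 18 alternative settings, at -0.95 to -0.82. It read 9.69 on average in Th3 kidneys and 10.57 in control kidneys. Klf15 rose by 0.28 ± 0.16 (adjusted p = 0.0289; without array 2 or 4, 0.0799 and 0.0709). Foxc1 rose by 0.22 ± 0.10 (adjusted p = 0.0353; without array 1, 2 or 4, up to 0.163). Lmx1b was near background.

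Among 11 genes of the podocyte membrane and secretions 2 rose, 1 fell and 8 did not pass (27.3% called), with a median of 0.02. Sema3g, a secreted semaphorin, rose by 0.39 ± 0.07 (adjusted p = 0.00641), with 0.47, 0.35, 0.33 and 0.44 on the arrays. Vegfa, the growth factor that podocytes supply to glomerular capillaries and that tubules make too, rose by 0.39 ± 0.13 (adjusted p = 0.00903), but a probe nearly as bright gave -0.10 ± 0.22 and the mean of all its probes did not pass (0.15, adjusted p = 0.13). Cdkn1c, a cell cycle inhibitor of mature podocytes, had ratios of -0.03, -0.03, -0.65 and -0.70, a mean of -0.35 ± 0.37 (adjusted p = 0.00703). Without the dye term, which sets the p-value by the spread within pairs of arrays, Cdkn1c did not pass (adjusted p = 0.144).

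Of 15 genes of the glomerular basement membrane and its anchors 14 were tested; Nid1 (nidogen) rose, Itga3 (the laminin receptor subunit of podocytes) fell, and 12 did not pass (14.3% called), with a median of 0.05. Nid1 rose by 0.41 ± 0.23 (adjusted p = 0.0214; without array 3 or 4, 0.0765 and 0.0556). Without array 2, where it stood at 0.07, it was 0.53. Itga3 had ratios of -0.15, -0.23, -0.21 and -0.31, a mean of -0.23 ± 0.07 (adjusted p = 0.0299). It did not pass without array 1, 2 or 4 (adjusted p up to 0.153). The other kept probes of Itga3 gave -0.18 and -0.04, and the mean of all its kept probes did not pass (-0.15, adjusted p = 0.0731). Hspg2 was not analysed here.

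Lists named for other cells of the glomerulus held calls in both directions. The RNA is of kidney, and which cells gave these ratios was not tested. Among 11 endothelial genes 2 rose and 9 did not pass (18.2% called, median 0.04). Flt1, a receptor of Vegfa, rose by 0.73 ± 0.46 (adjusted p = 0.0106), and its other kept probes gave 0.56 and 0.86. Once dye orientation is a random block, Flt1 did not pass (adjusted p = 0.0571). Plat, the tissue plasminogen activator, rose by 0.35 ± 0.31 (adjusted p = 0.0472), and by 0.20 without array 3 (adjusted p = 0.0736). Plat did not pass under 10 of 18 alternatives, among them no dye term (adjusted p = 0.0998) and the mean of all kept probes (0.24, adjusted p = 0.0654). The other kept probes of Plat gave 0.17 and 0.20. Among 8 mesangial genes 1 rose, 3 fell and 4 did not pass (50% called, against 21.5% of all genes, median -0.08). Pdgfrb, the receptor of mesangial cells and pericytes, rose by 0.35 ± 0.10 (adjusted p = 0.00962), while Itga8, the integrin subunit of mesangial cells, stood at -0.72, -0.47, -0.57 and -0.84, a mean of -0.65 ± 0.16 (adjusted p = 0.00322). Thy1, a surface protein in this list that is not particular to mesangial cells, fell, at -0.07, -0.16, -1.09 and -1.04. Its mean was -0.59 ± 0.55 (adjusted p = 0.00182, and 0.0959 without the dye term). Serpine2, named after its value was seen, had 0.15, -0.13, -0.53 and -0.83, a mean of -0.34 ± 0.43 (adjusted p = 0.0258; without the dye term 0.205; without array 2 or 4, 0.0695 and 0.0771).

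Of 6 genes of the parietal epithelium, the layer that lines the capsule around the glomerulus, 1 rose, 1 fell and 4 did not pass (33.3% called, median 0.05). Cldn1 (claudin 1) rose by 0.28 ± 0.20 (adjusted p = 0.0468), and this call was lost without array 2 (0.18, adjusted p = 0.229), array 3 or array 4. Cd44, a mark of activated parietal cells that leukocytes also carry, had -0.22, -0.04, -0.95 and -0.72, a mean of -0.48 ± 0.42 (adjusted p = 0.00582; without the dye term 0.0897). Among 10 tubule genes, set beside the glomerular ones because tubules make up most of the kidney, 1 rose, 3 fell and 6 did not pass (40% called, median -0.13). Slc34a1, the phosphate transporter of the proximal tubule, had -0.23, -0.19, -0.67 and -0.66, a mean of -0.44 ± 0.26 (adjusted p = 0.00379), although a dimmer probe gave 0.18 ± 0.17, and the call was lost for the mean of both probes (-0.13, adjusted p = 0.113) and once dye orientation was a random block (0.0539). Slc5a2 (a glucose transporter) and Cubn (cubilin, named after its value was seen) fell by 0.21 and 0.20 (adjusted p = 0.0375 and 0.0362), both calls lost without any 1 array (0.0639 to 0.214), and Atp6v1g3, a proton pump subunit of intercalated cells, rose by 0.27 ± 0.11 (adjusted p = 0.0264; without array 1, 3 or 4, up to 0.156). The part of any of these cells in the ratios of the 8 podocyte genes was not tested.

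**Figure D5:**
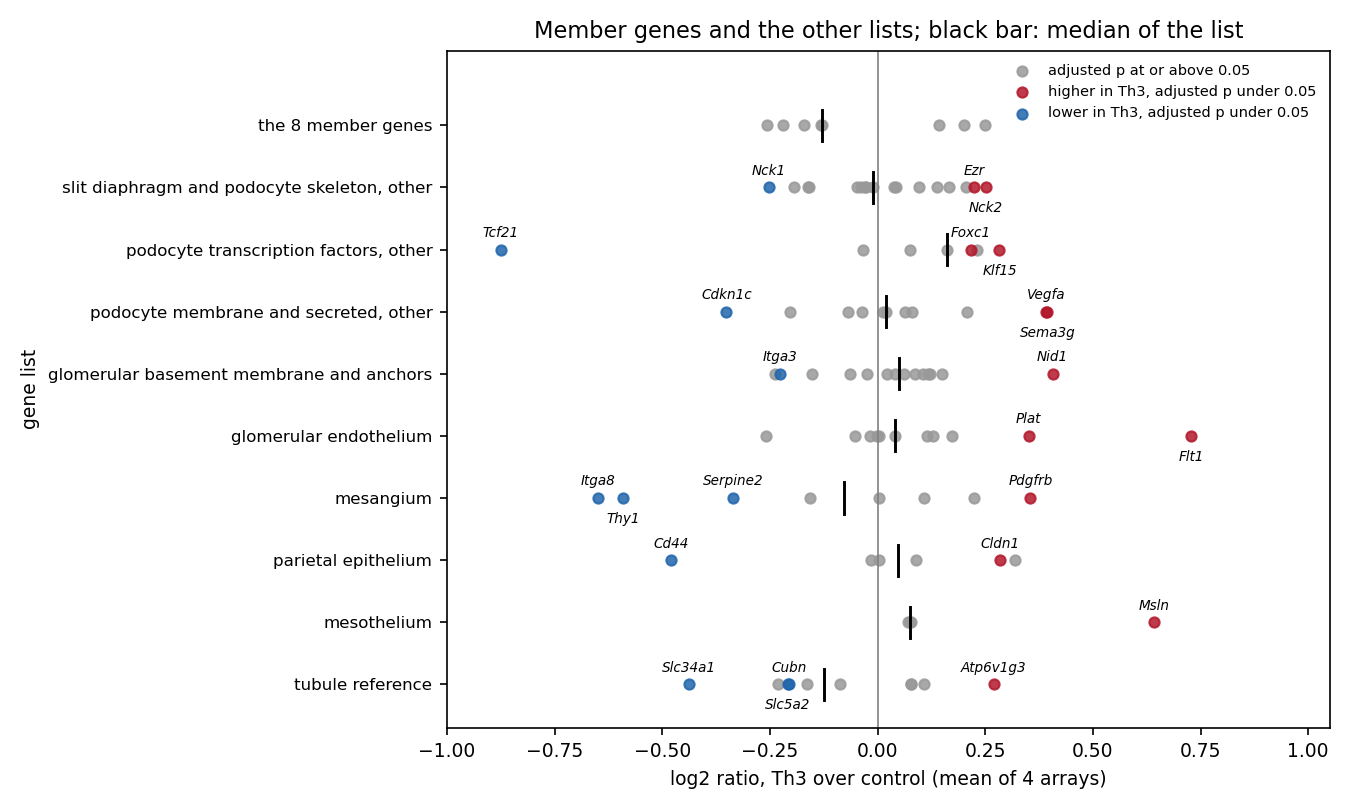
Mean log2 ratio of Th3 over control (horizontal axis) for each tested gene of the 8 podocyte genes and of 9 other lists (rows), with genes at an adjusted p under 0.05 in red where higher in Th3 and in blue where lower, and a black bar at the median of each list. The 8 genes lie within -0.26 to 0.25 and carry no call, and Tcf21, at -0.88, lies farthest from 0.

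In the authors' deposited table the 8 genes fill 27 entries, 1 per spot, and 0 of them have an adjusted p under 0.05, against 3043 of 37205 entries in all. The lowest adjusted p there, 0.105, belongs to a spot of Wt1, whose 10 entries in the authors' deposited table have signed folds of 1.18 to 1.24.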

How the data were processed

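Spot signals and local backgrounds are intensities from Feature Extraction 9.5.3.1 on array design 014868, per the file headers. The authors' scanner files add dye-normalized processed intensities and a log10 ratio of the dyes. In the authors' deposited series-wide table, log2 ratios of each array stand beside a signed fold (held here as a score) and an adjusted p-value, made by methods not given in the sources used here. Positions are on mm8, per the file headers.

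Mean signals were corrected with normexp (offset 50) and loess-normalized within arrays (span 0.3, 4 iterations) in R 4.3.3 with limma 3.58.1. Control spots and flagged outlier spots took no part. Kept probes (26434 of 41174) had a value on at least 3 arrays and were well above background on all 4 in the Th3 or the control channel. A gene took its brightest kept probe. Levels per sample are log2 values after loess and Aquantile. Gene names were updated with a RefSeq gene list (GRCm38.p6, used for names only), which matched 23374 probes on accession, 6733 on symbol and 2919 on synonym and left 8148 with the name in the file.

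Ratios turned to Th3 over control were fitted for all genes with lmFit and eBayes on a Th3 term and a dye term (2 residual and 4.52 prior degrees of freedom). P-values were Benjamini-Hochberg adjusted over all 17628 genes and called under 0.05. The fit was tested on simulated data. Alternatives changed background correction, normalization, filter, dye term, probe rule or another single choice, or left out an array; those on Agilent processed signals and on the authors' log2 ratios replaced background correction and normalization together. The 8 genes and the lists were chosen with earlier results of these data known. The rule for named genes took all 8 genes, up to 2 called genes with the largest increase and 2 with the largest decrease per list, and the 5 profiles closest to Nphs1. Some genes of the lists are not reported here and were left out of their counts.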

Additional observations from a re-analysis of the deposited data

Results flagged for a closer look

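Dixon's test was applied to 39 sets of 4 values (the Th3 levels, the control levels and the ratios of each kept probe). In 5 sets 1 value stood apart from the other 3 by more than the 95% critical value. For independent sets chance gives this in about 1 set in 20. The ratios come from the same signals as the levels, so the sets are not independent and their count tests nothing. For the dimmer Podxl probe array 1 stood apart in both channels, with a log2 level of 8.31 in the Th3 sample and 8.51 in the control sample. For the brightest Ptpro probe the control level on array 2 was 10.49, below the other controls, and the log2 ratio of that array was 0.14, the only one above 0. For the brightest Plce1 probe the Th3 level on array 3 was 6.93, below the other Th3 samples.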

How the results depend on the processing

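Under 18 alternatives, 0 of the 8 genes was called except where an array was left out. Without array 1, Wt1 passed (0.36, adjusted p = 0.0114), and without array 2, Ptpro (-0.40, 0.00555) and Synpo (-0.32, 0.0458) did. Leaving out 1 array at a time gave 0 to 1 gene higher and 0 to 2 lower, with ratios of -0.27 to -0.076 for Nphs1, 0.14 to 0.36 for Wt1, -0.40 to -0.12 for Ptpro, -0.36 to -0.082 for Synpo and -0.32 to 0.057 for Podxl. Podxl turned sign without array 4 (0.057) and in no other setting. Reading the mean of all kept probes moved Cd2ap to 0.04, Plce1 to -0.03, Podxl to -0.02 and Ptpro to -0.15, and Agilent processed signals moved Plce1 to -0.19. Of all genes, 1927 were higher and 1866 lower. These fell to 1102 and 888 with no dye term, and to 645 and 554 with the pairs of arrays of 1 dye orientation as a random block (estimated correlation 0.183). Median centring in place of loess gave 1144 lower, and single arrays left out gave 1325 to 1612 higher and 1246 to 1579 lower. Of the 24 called genes of the other lists, 4 (Tcf21, Sema3g, Itga8 and Pdgfrb) were called under every alternative, 11 with no dye term and 5 with the random block, where Flt1 and Slc34a1 were among those lost. The fit is paired by array, because each ratio sets the 2 samples of an array against each other. The labels number no other pairs. With 4 arrays, the 95% intervals of the 8 genes reached from -0.48 to 0.44, and probes near background give no ratio to read.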
